A study of Mus musculus with 8 samples.

Results

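The 10 genes described here encode the core of antigen presentation by the major histocompatibility complex (MHC) in the mouse. They are the class II chains H2-Aa, H2-Ab1 and H2-Eb1, the class II assembly and loading genes Cd74, H2-DMa and H2-DMb1, the class II transactivator Ciita, and the class I genes H2-K1, H2-D1 and B2m. The members were picked by gene name, with earlier results of these data known, from the 45706 rows of the deposited table of counts per gene. All 10 were in the table, and all 10 were among the 14629 genes with enough counts to be tested. They were compared between fasted livers of WT mice and of mice carrying the S155A form of PLIN5 (SA/SA), a lipid droplet protein in which a serine phosphorylation site was changed to alanine by CRISPR-Cas9 in the whole animal, so that every cell type of the liver carries the allele.

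The data come from female mice on the C57BL/6J background, 4 WT and 4 SA/SA, with 1 library of liver RNA per mouse. All were 4 months old and fasted overnight, so no fed liver stands beside them. The study asked how loss of this phosphorylation site affects hepatic gene expression during fasting. The labels name hepatocytes as the cell type and liver as the tissue. Marker genes of hepatocytes, Kupffer cells, endothelial cells and lymphocytes all had counts in these libraries, so the values are read as whole liver. In such samples, fewer cells of a type and less RNA per cell cannot be told apart. Total counts were between 39709785 and 54540864 per library. SA/SA replicate 3 stood apart in immunoglobulin and B cell transcripts, and values without it are given where they matter.

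Class II molecules present peptides from endocytosed proteins to CD4+ T cells and are normally made by professional antigen-presenting cells, which in the liver are mainly dendritic cells, B cells and a share of the macrophages. Class I molecules present peptides from the cytosol to CD8+ T cells and are made by nearly all nucleated cells, hepatocytes included. The class II genes depend on the transactivator CIITA, which acts through factors bound to a shared upstream module, whereas the related protein NLRC5 acts on class I genes.

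No member passed a test of difference between genotypes. Of the 10 genes, 0 were called at an adjusted p under 0.05 by edgeR, where 0% of all tested genes were called. DESeq2 also called 0 of the 10, against 0.0411% of all genes. At an unadjusted p under 0.05 edgeR again called 0 of the 10, against 3.4% of all genes, and DESeq2 and limma-voom also called 0, against 4.07% and 3.19% of all genes. The livers of the genotypes overlapped for all 10 members, whereas they did not overlap for 2.3% of all genes. The median log2 fold change of SA/SA over WT was 0.15 over the 10 members and -0.0050 over all 14629 genes. What the members did show was a split between class II and class I members in their variation from liver to liver. The 7 class II pathway genes ranged from 2.32-fold to 4.87-fold between the lowest and the highest liver, and they had the same 3 lowest livers, which came from both genotypes. The 3 class I genes stayed within 1.31-fold. Of 6 other class II genes tested, 1 had the same 3 lowest livers, against 2.11% of all genes.

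**Figure D1:**
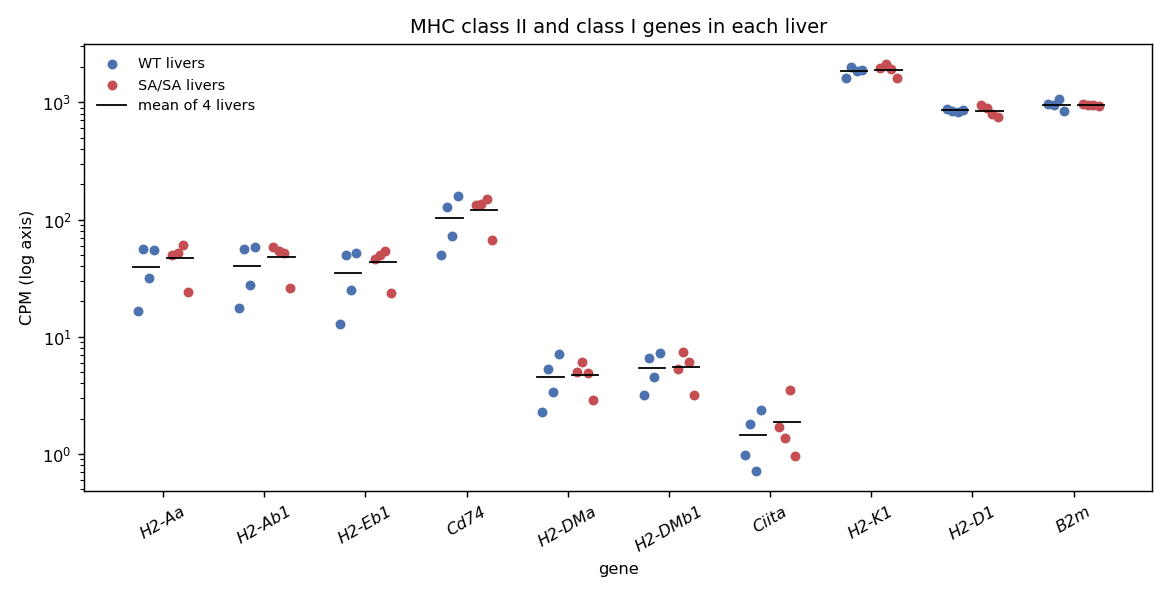
CPM of each gene on a log axis in each of the 4 WT livers (blue points) and the 4 SA/SA livers (red points), with the black line at the mean of 4 livers. Points of the genotypes overlap for all 10 genes, and the points spread further apart for the class II genes than for H2-K1, H2-D1 and B2m.

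Plin5 itself, the edited gene, was measured at 206 ± 32.3 CPM in WT livers and 328 ± 118 CPM in SA/SA livers (SD, n = 4 each). CPM is the count of a gene relative to the scaled size of its library. The log2 fold change was 0.67 (SE 0.24, edgeR adjusted p = 0.993). The edit changes 1 codon, and gene counts do not show which allele a library carries.

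Per length, the class I genes were the most abundant members. H2-K1, the heavy chain of the classical molecule H-2K, had a mean level of 1155 CPM per kb of its principal transcript over the 8 livers. B2m, the light chain shared by class I molecules, had 1108 CPM per kb. These levels did not differ beyond their spread, because H2-K1 was above B2m in some livers and below it in others, at 0.886 to 1.18 times. H2-D1, the heavy chain of H-2D, followed at 404 CPM per kb and lay below H2-K1 and B2m in every liver. Next came Cd74, the invariant chain that escorts class II dimers, at 79.2 CPM per kb. Below it, H2-Aa, the alpha chain of I-A, and H2-Ab1, its beta chain, had 38.2 and 36.0 CPM per kb. Within livers H2-Ab1 stood at 0.805 to 1.08 times H2-Aa, above it only in SA/SA replicate 1 and close to it in several livers. H2-Eb1, the beta chain of I-E, had 23.5 CPM per kb. The lowest were the peptide exchange chains H2-DMb1 and H2-DMa, at 3.88 and 2.79 CPM per kb, and the transactivator Ciita, at 0.278 CPM per kb. The partner of H2-Eb1, the alpha chain H2-Ea, is listed as a pseudogene in the table and had 0 counts in all 8 livers, which allows up to 0.0792 CPM in the shallowest library. It was named after its value was seen, and C57BL/6 mice are known not to make this chain.

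H2-Aa (ENSMUSG00000036594) was measured at 16.5, 55.6, 31.6 and 54.7 CPM in WT replicates 1 to 4 and at 49.6, 52.0, 60.3 and 24.2 CPM in SA/SA replicates 1 to 4. WT replicates 1 and 3 and SA/SA replicate 4 were low and the other 5 livers were close together, so the spread lay within each genotype. The means were 39.6 ± 19.0 CPM in WT and 46.5 ± 15.6 CPM in SA/SA livers (SD, n = 4 each). The log2 fold change was 0.23 with a 95% confidence interval of -0.61 to 1.07 (edgeR adjusted p = 0.993). A two-sided exact permutation test of the same livers gave p = 0.629.

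H2-Ab1 (ENSMUSG00000073421) was measured at 17.7, 55.6, 27.7 and 58.5 CPM in WT and at 57.8, 54.1, 52.1 and 25.9 CPM in SA/SA livers, in order of replicate. The same 3 livers were low. Its log2 fold change was 0.25 with an interval of -0.58 to 1.09 (edgeR adjusted p = 0.993). H2-Eb1 (ENSMUSG00000060586) was measured at 13.0, 50.2, 25.3 and 52.2 CPM in WT and at 46.3, 49.4, 53.7 and 23.7 CPM in SA/SA livers. Its lowest liver was again WT replicate 1, and its range of 4.14-fold was the widest of the 3 chains. Its log2 fold change was 0.30 with an interval of -0.60 to 1.20 (edgeR adjusted p = 0.993). Together the 3 chains summed to between 47.2 and 166 CPM per liver, a 3.52-fold range.

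The assembly and loading genes followed the chains. Cd74 (ENSMUSG00000024610) was measured at 50.3, 129, 71.7 and 158 CPM in WT and at 132, 136, 149 and 66.9 CPM in SA/SA livers. WT replicate 1, SA/SA replicate 4 and WT replicate 3 were the 3 lowest, in the same order as for the chains. SA/SA over WT gave a log2 fold change of 0.25 with an interval of -0.55 to 1.04 (edgeR adjusted p = 0.993). H2-DMa (ENSMUSG00000037649), the alpha chain of the peptide exchanger that removes the invariant chain fragment, was measured at 2.27, 5.30, 3.35 and 7.11 CPM in WT and at 5.02, 6.08, 4.91 and 2.91 CPM in SA/SA livers. Its beta chain H2-DMb1 (ENSMUSG00000079547) was measured at 3.17, 6.64, 4.57 and 7.30 CPM in WT and at 5.26, 7.36, 6.12 and 3.20 CPM in SA/SA livers. Both exchange chains had the 3 lowest livers of H2-Aa, and their genotype means were nearly equal. Log2 fold changes were 0.07 for H2-DMa (interval -0.71 to 0.85, edgeR adjusted p = 0.998) and 0.02 for H2-DMb1 (interval -0.67 to 0.70, edgeR adjusted p = 0.9998). H2-DMb1 shares 13.7% of its 100-base stretches with H2-DMb2, and how the counting program divided such reads is uncertain.

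Ciita (ENSMUSG00000022504), the coactivator on which class II transcription depends, was the least abundant member, with 34 to 132 counts per library. It was measured at 0.970, 1.81, 0.716 and 2.35 CPM in WT and at 1.71, 1.36, 3.48 and 0.969 CPM in SA/SA livers. WT replicate 3 was the lowest liver and SA/SA replicate 3 the highest, while the lowest 3 livers were those of the other class II pathway members. Its log2 fold change was 0.36 with an interval of -0.70 to 1.41 (edgeR adjusted p = 0.993). It rested on SA/SA replicate 3: without that liver it was -0.12. The median over the 10 members was 0.051 without it.

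The class I genes varied far less. H2-K1 (ENSMUSG00000061232) was measured at 1619, 1995, 1851 and 1880 CPM in WT and at 1973, 2110, 1916 and 1614 CPM in SA/SA livers. Its lowest livers were SA/SA replicate 4, WT replicate 1 and WT replicate 3, the 3 livers that were low for class II, but its whole range was 1.31-fold. Its log2 fold change was 0.05 with an interval of -0.21 to 0.31 (edgeR adjusted p = 0.996). H2-D1 (ENSMUSG00000073411) was measured at 876, 845, 829 and 864 CPM in WT and at 945, 897, 797 and 749 CPM in SA/SA livers. The SA/SA livers lay on both sides of the WT livers. The log2 fold change was -0.01 with an interval of -0.24 to 0.22 (edgeR adjusted p = 0.999). Of the 100-base stretches of H2-D1, 4.64% also occur in other class I genes or pseudogenes.

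B2m (ENSMUSG00000060802) was measured at 970, 952, 1058 and 848 CPM in WT and at 963, 947, 952 and 934 CPM in SA/SA livers. The SA/SA livers lay within the range of the WT livers. The log2 fold change was -0.01 with an interval of -0.23 to 0.21 (edgeR adjusted p = 0.999). The 3 class I genes together summed to between 3296 and 3953 CPM per liver, a 1.20-fold range.

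**Figure D2:**
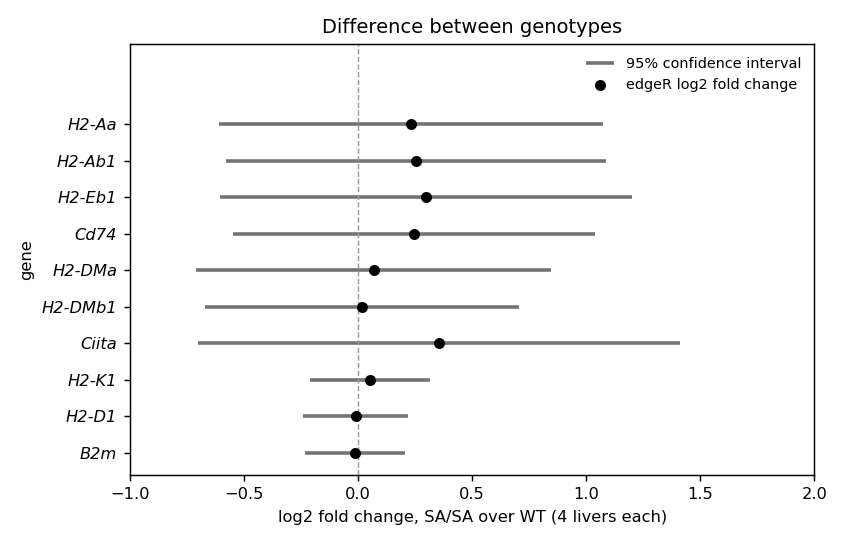
Log2 fold change of SA/SA over WT for each gene (black points, edgeR, 4 livers each) with its 95% confidence interval (grey lines), on a linear axis. All 10 intervals include 0, and those of the class I genes are the narrowest, for example -0.23 to 0.21 for B2m against -0.70 to 1.41 for Ciita.

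The intervals were wide for class II and narrow for class I. For the 7 class II pathway genes the upper bounds were 0.70 to 1.41 on the log2 scale, so changes up to those sizes remain within the intervals of these livers. For the class I genes no bound lay further from 0 than 0.31. The point estimates were positive for all 7 class II pathway genes, with a median of 0.25, and for 1 of the 3 class I genes. Without SA/SA replicate 3 they were positive for 5 of the 7. The class II estimates share the same low livers, and none is past its test. Without WT replicate 1, the lowest liver for most class II genes, the median over the 10 members was 0.0028.

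The animal numbers in the labels fall into a low series (replicates 1 and 4) and a high series (replicates 2 and 3) within both genotypes. What these series stand for is not given. Each series held low and high class II livers. The difference of mean log2 CPM between genotypes was 0.20 in the low and 0.42 in the high series for H2-Aa, 0.27 and 0.44 for H2-Ab1, and 0.35 and 0.53 for H2-Eb1. For Cd74 it was 0.08 and 0.57. The sign changed between series for H2-DMa (-0.07 and 0.37), H2-DMb1 (-0.23 and 0.28) and Ciita (-0.23 and 0.91). It also changed for the class I genes H2-D1 (-0.05 and 0.02) and B2m (0.06 and -0.08), but not for H2-K1 (0.03 and 0.07). The interaction of genotype and series was called for 0 of the 10 members by edgeR, with 0% of all genes called and 0.665 as the smallest adjusted p of a member. Without adjustment it was called for 1622 of all genes and for 0 members.

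The class II pathway members moved together from liver to liver. The SD of log2 CPM within genotypes was 0.72 for H2-Aa, 0.70 for H2-Ab1, 0.77 for H2-Eb1, 0.66 for Cd74 and 0.76 for Ciita, where the median over all tested genes was 0.273. For H2-DMa it was 0.60, and for H2-DMb1 it was 0.53. Between 79.7% and 91.3% of all genes had a smaller SD than these 7. For H2-K1 the SD was 0.15, for H2-D1 0.11 and for B2m 0.094, and 17.8%, 8.13% and 4.42% of genes had a smaller one. All 7 class II pathway genes had the 3 lowest livers of H2-Aa, as did H2-K1. Of all tested genes, 2.11% had these livers as their lowest 3. This share describes the livers and is no test, since H2-Aa itself fixed which livers were counted.

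**Figure D3:**
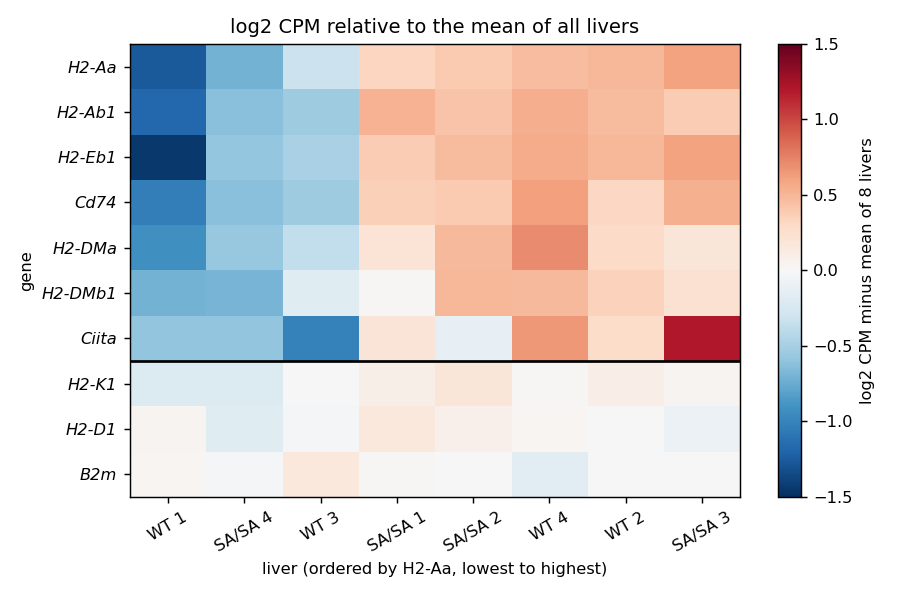
Log2 CPM of each gene minus its mean over the 8 livers (blue below and red above the mean), with livers ordered by H2-Aa and the black line separating class II pathway genes above from class I genes below. WT replicate 1, SA/SA replicate 4 and WT replicate 3 are low for all 7 class II pathway genes, and the class I genes stay near 0.

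Ratios among the class II chains and Cd74 within a liver were steadier than their levels. Per kb, H2-Ab1 stood at 0.805 to 1.08 times H2-Aa over the 8 livers, a 1.35-fold range, although each of the chains ranged more than 3-fold. H2-Eb1 stood at 0.530 to 0.663 times H2-Aa. Cd74 stood at 1.82 to 2.43 times H2-Aa. The exchange chains H2-DMa and H2-DMb1 kept a ratio of 0.608 to 0.824. H2-DMb1 over H2-Aa ranged 1.89-fold, from 0.0816 to 0.154, and it was highest in WT replicate 1, the liver with the least H2-Aa. Ciita over H2-Aa ranged 2.59-fold, from 0.00426 to 0.0110, on low counts of Ciita. By contrast H2-Aa over H2-K1 ranged 3.08-fold. Among the class I genes the ratios ranged about as widely as the levels. H2-K1 over H2-D1 ranged 1.30-fold, H2-K1 over B2m 1.34-fold and H2-D1 over B2m 1.30-fold, while the levels ranged 1.31-fold for H2-K1, 1.26-fold for H2-D1 and 1.25-fold for B2m. The ranges of the genotypes overlapped for all 10 ratios computed.

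Sequence upstream of the start sites was read beside the levels, and its part in them was not tested. Of the 10 members, 7 had an entry among the RefSeq promoters of GRCm38.p6. MHC genes carry an upstream module in which an X box, ending in a site for CREB-like factors, precedes a Y box bound by NF-Y. These 7 members have 9 entries, of which 8 held ATTGG, the core of the Y box, in the 250 bases before the start, searched on both strands. Of all 32851 promoter entries, 33.8% hold it. The letters TGANG followed by ATTGG after 15 to 25 bases occurred in 7 of the 9 entries, from 6 of the 7 members, where 2.46% of all entries hold the pair on either strand. The range of gaps was set after these promoters had been read, so the count is a description. The member without the pair was H2-DMa. The following stretches show the pair with capitals marking TGANG and ATTGG, 5′ to 3′ on the strand of the gene.
H2-Aa, GRCm38.p6 chr17:34287857-34287917, reverse strand: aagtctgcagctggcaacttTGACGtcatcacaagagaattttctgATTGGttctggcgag
H2-Eb1, GRCm38.p6 chr17:34305764-34305822, forward strand: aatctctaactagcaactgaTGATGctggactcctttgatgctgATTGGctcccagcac
H2-K1, GRCm38.p6 chr17:34000349-34000408, reverse strand: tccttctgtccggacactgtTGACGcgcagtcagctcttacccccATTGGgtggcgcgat
B2m, GRCm38.p6 chr2:122147589-122147648, forward strand: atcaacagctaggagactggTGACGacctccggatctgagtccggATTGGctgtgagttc

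These stretches lie just upstream of their genes. In GENCODE release M21 the H2-Eb1 stretch is also spanned by an antisense transcript of Gm20513. The B2m stretch is spanned by a transcript of Patl2 on the other strand, and both stretches lie outside exons. The pairs of H2-D1 and H2-DMb1, not printed, lie before their RefSeq starts. In that release, however, they fall inside an exon of the gene's own principal transcript, in its untranslated part. ATTGG began 48 bases before the RefSeq start of H2-Aa, 59 before that of H2-Eb1, 53 before that of B2m, and 16 or 30 before those of the 2 entries of H2-K1. Of the pairs found, the one with the gap closest to 20 bases had a gap of 20 in H2-K1, H2-D1, H2-DMb1 and B2m, 21 in H2-Aa and 19 in H2-Eb1. In 3 of these genes a TGANG starting further upstream overlapped the TGANG of this pair. It gave gaps of 23 in H2-D1, 23 in H2-DMb1 and 22 in H2-Eb1. The pair was found before RefSeq starts of both class II and class I genes. Between livers, levels ranged 2.32-fold to 4.14-fold for these class II genes and 1.25-fold to 1.31-fold for the class I genes.

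The genes lie at few places in GRCm38. H2-K1 spans 33996017 to 34000347 of chromosome 17, and 5 of the class II pathway members follow on the same chromosome. H2-DMa spans 34119541 to 34139101, H2-DMb1 34153072 to 34160230, H2-Ab1 34257689 to 34269419, H2-Aa 34282744 to 34287823 and H2-Eb1 34305867 to 34316674. H2-D1 lies further on, from 35262730 to 35267499. Ciita spans 10480059 to 10528418 of chromosome 16, Cd74 60803848 to 60812652 of chromosome 18, and B2m 122147686 to 122153083 of chromosome 2. H2-K1 and H2-D1 flank the 5 class II pathway members of chromosome 17, and Cd74 and Ciita, which had the same 3 lowest livers, lie on other chromosomes.

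Of the other class II genes, a list of 8 held 6 that were tested, and edgeR called 0 in either direction. They ranged 3.31-fold at the median between the lowest and the highest liver, but their summed level ranged 1.74-fold. Only 1 of the 6 had the 3 lowest livers of H2-Aa, against 2.11% of all genes, and their sum did not. All 6 had positive estimates, with a median log2 fold change of 0.28, whereas without SA/SA replicate 3 the median was 0.081 and 3 of the 6 were positive. Ifi30, the lysosomal thiol reductase that prepares antigens, was measured at 9.71 to 12.7 CPM in WT and 8.54 to 19.98 CPM in SA/SA livers (log2 fold change 0.38, edgeR adjusted p = 0.993). H2-Oa, a chain of the inhibitor of peptide exchange, was measured at 0.0746 to 0.553 CPM in WT and 0.277 to 1.08 CPM in SA/SA livers (log2 fold change 0.81, edgeR adjusted p = 0.993).

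For peptide supply and loading of class I, 13 of 13 genes were tested and 0 were called, with a median log2 fold change of 0.026. Tap1, a subunit of the peptide transporter, was measured at 23.1 to 43.3 CPM in WT and 23.9 to 38.5 CPM in SA/SA livers. The chaperone Calr was measured at 306 to 697 CPM in WT and 410 to 814 CPM in SA/SA livers. Of the genes named by smallest p, log2 fold changes were -0.21 for Tap1, -0.09 for Tapbpl, a peptide editor, 0.30 for Pdia3, a thiol oxidoreductase of the loading complex, and 0.35 for Calr (edgeR adjusted p = 0.993 for each).

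Of 17 other class I and class I-like genes, 15 were tested and 0 were called. These 15 ranged 1.55-fold at the median between the lowest and the highest liver. By edgeR, 2 had an unadjusted p under 0.05, against 3.4% of all genes, both with lower values in SA/SA livers. H2-Q2 was measured at 0.316 to 0.632 CPM in WT and 0.158 to 0.277 CPM in SA/SA livers, with a log2 fold change of -1.07 (edgeR adjusted p = 0.993). The WT and SA/SA livers did not overlap for H2-Q2, 1 of the 15 genes, against 2.3% of all genes. H2-Q2 had only 6 to 31 counts per library. H2-Q1 was measured at 5.27 to 7.53 CPM in WT and 1.37 to 5.84 CPM in SA/SA livers, with a log2 fold change of -0.88 (edgeR adjusted p = 0.993). The H2-Q genes closely resemble other class I genes, and their counts are uncertain. The smallest p in the other direction belonged to Hfe (0.11) and H2-T10 (0.12).

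Regulators of MHC transcription were also without a call, with 17 of 18 tested and a median log2 fold change of -0.040. Jak2, a kinase of the interferon gamma receptor, was measured at 9.81 to 11.6 CPM in WT and 7.76 to 9.29 CPM in SA/SA livers (log2 fold change -0.26, edgeR adjusted p = 0.993). Its WT and SA/SA livers did not overlap, for 1 of the 17 regulators against 2.3% of all genes. The others named by the rule were Creb1 (-0.37), Nfyc (0.15) and Irf8 (0.17). Of 14 genes induced by interferon gamma, 13 were tested and 0 were called, with a median of -0.13. The named genes were the guanylate binding proteins Gbp2 (0.13) and Gbp6 (-1.11), the GTPase Irgm2 (-0.26) and the feedback inhibitor Socs1 (0.21). Neither DESeq2 nor limma-voom called a gene of these 5 pathway lists after adjustment. At an unadjusted p under 0.05, edgeR, DESeq2 and limma-voom called 2, 3 and 2 of the other class I genes, 0, 1 and 0 of the regulators, 0, 0 and 1 of the interferon gamma genes, and 0 of the rest. Over all genes these tools called 3.4%, 4.07% and 3.19%. The summed level of the tested interferon gamma genes was 261 to 469 CPM in WT and 267 to 462 CPM in SA/SA livers.

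Cell type markers were read beside the class II pattern. The summed markers of dendritic cells were 13.5, 13.6 and 13.9 CPM in the 3 livers low for class II and 16.0 to 18.3 CPM in the others. This was a range of 1.36-fold against 3.52-fold for the class II chains. Most of this sum was Zbtb46 and Clec9a, and neither divided the livers in this way. Clec9a was highest in WT replicate 1, at 4.21 CPM. Zbtb46 was 8.32 CPM in SA/SA replicate 4 against 8.51 CPM in WT replicate 2, its highest liver. The T and NK cell sum was 3.92, 4.80 and 6.49 CPM in those 3 livers and 6.87 to 15.6 CPM in the others. The neutrophil sum was 3.40, 4.46 and 5.73 CPM in them and 6.21 to 16.1 CPM in the others. The plasma cell sum also had these 3 livers lowest, but most of it was Sdc1 and Xbp1. Without these 2 genes it was 18.6, 19.5 and 25.3 CPM in the 3 livers and 22.2 to 2119 CPM in the others, and WT replicate 2 lay among the lowest. The Kupffer cell and macrophage sum did not divide the livers in this way, being lowest, at 334 CPM, in WT replicate 2, where class II was high. Neither did B cell markers, which were 5.52 to 10.6 CPM in the 3 livers and 8.50 to 31.7 CPM in the others. Gene by gene the sums hid differences, since 1 of 11 dendritic, 2 of 10 T and NK, 3 of 5 neutrophil and 2 of 9 plasma cell genes had these 3 livers lowest. The part of cell content in the class II pattern was not tested.

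**Figure D4:**
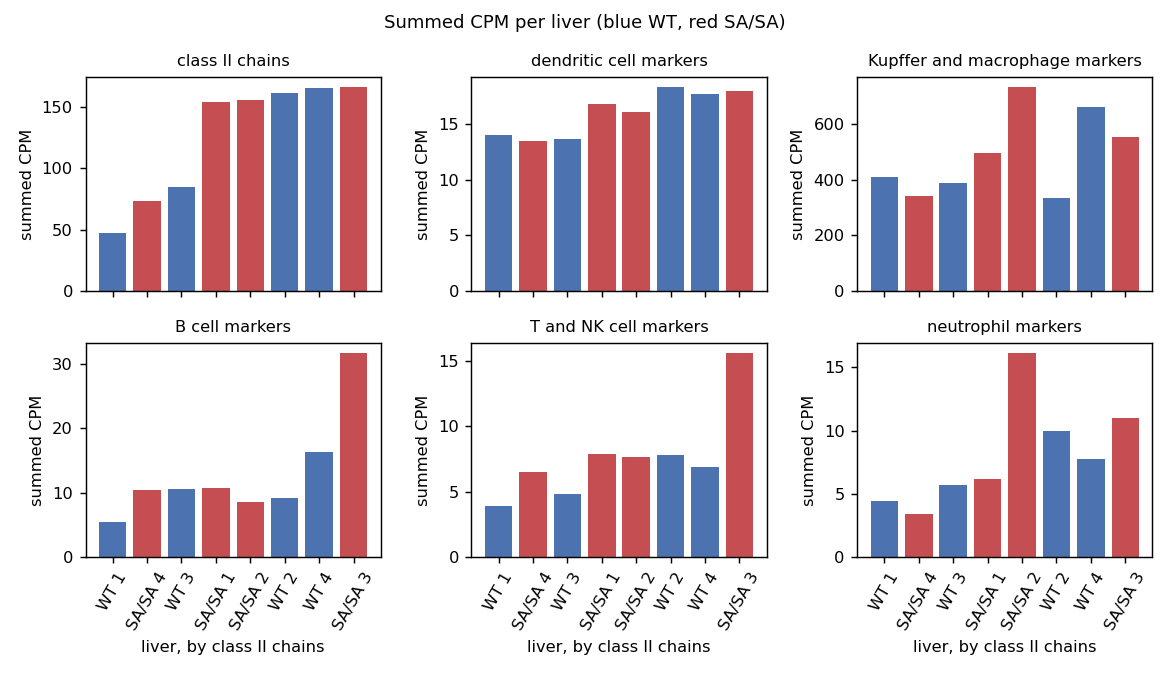
Summed CPM per liver (bars from 0, blue WT and red SA/SA) of the 3 class II chains and of 5 lists of marker genes, with livers ordered by the class II chains. The class II sum is 47.2 to 84.6 CPM in the first 3 livers and 154 to 166 CPM in the others, while the dendritic cell sum differs less and the B cell sum is highest in SA/SA replicate 3.

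Between genotypes, the marker sums overlapped for these cell types. They were 13.6 to 18.3 CPM in WT and 13.5 to 17.9 CPM in SA/SA livers for 11 dendritic cell genes, and 334 to 661 CPM and 340 to 730 CPM for 13 Kupffer cell and macrophage genes. For 10 B cell genes they were 5.52 to 16.4 CPM and 8.50 to 31.7 CPM. For 9 plasma cell genes they were 509 to 654 CPM and 580 to 2728 CPM, the highest in SA/SA replicate 3. EdgeR gave 7 of the 9 an unadjusted p under 0.05 with higher values in SA/SA livers but called 0 after adjustment. Over all genes, 3.4% had an unadjusted edgeR p under 0.05 in either direction. Without SA/SA replicate 3, 0 of the 9 had an unadjusted p under 0.05, and their median log2 fold change was 0.19 instead of 2.67. For 10 T and NK cell genes they were 3.92 to 7.79 CPM and 6.49 to 15.6 CPM. Of these, 2 had an unadjusted p under 0.05 with higher values in SA/SA livers (1 without SA/SA replicate 3), against the same 3.4% of all genes. Of the 10, 1 did not overlap, against 2.3% of all genes. It was Cd3d, at 0.261 to 0.498 CPM in WT and 0.662 to 0.871 CPM in SA/SA livers. Estimates were positive, as for the class II genes, for 9 of these 10 genes and for all 13 Kupffer cell and macrophage genes, with medians of 0.71 and 0.20, and for 8 and 12 of them without SA/SA replicate 3. They were also positive for 9 of 9 plasma cell and 8 of 10 B cell genes (5 of the 10 without SA/SA replicate 3). Of the other lists, 4 of 5 neutrophil, 6 of 8 hepatocyte and 6 of 11 dendritic cell genes were positive. So were 3 of 8 endothelial, 1 of 5 cholangiocyte and 0 of 7 stellate cell genes, and 7138 of all 14629 genes. EdgeR called 0 of any of these lists after adjustment, and their part in the class II estimates was not tested. For 5 neutrophil genes the sums were 4.46 to 9.98 CPM and 3.40 to 16.1 CPM. None of these markers was at 0 in all libraries. In SA/SA replicate 3, where the B cell sum was highest, Ciita, H2-Aa and H2-Eb1 were also highest. H2-Aa was 60.3 CPM there against 55.6 CPM in the highest WT liver. By contrast, H2-Ab1, Cd74, H2-DMa and H2-DMb1 were highest in other livers. H2-Ab1 was 52.1 CPM in SA/SA replicate 3 against 58.5 CPM in WT replicate 4. The part of B cells in the Ciita value was not tested. Hepatocyte markers summed to 98144 to 115188 CPM in WT and 95295 to 136296 CPM in SA/SA livers, endothelial markers to 202 to 269 CPM and 191 to 254 CPM, stellate cell markers to 238 to 313 CPM and 106 to 242 CPM, and cholangiocyte markers to 27.1 to 85.4 CPM and 36.7 to 43.8 CPM.

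The genes most like the class II pattern were ranked by the root mean square difference from the mean centred log2 CPM of H2-Aa, H2-Ab1, H2-Eb1 and Cd74 over the 8 livers. The median over all tested genes was 0.694. H2-DMa and H2-DMb1 stood at ranks 5 and 11. The closest genes outside the members were Adam19 (0.21), a membrane metalloprotease, Cd7 (0.25), a lymphocyte surface protein, Selplg (0.25), the P-selectin ligand of leukocytes, Pdgfb (0.25), a platelet-derived growth factor chain, and Slc2a3 (0.26), a glucose transporter. Adam19 was measured at 0.634, 1.89, 1.28 and 2.25 CPM in WT and at 1.58, 1.63, 1.64 and 0.929 CPM in SA/SA livers, again low in the same 3. For the mean of H2-K1, H2-D1 and B2m the closest genes were Habp4 (0.028), H2-T23 (0.045), Foxj2 (0.048), Ap2m1 (0.049) and Ddx28 (0.049), where the median over all genes was 0.267. H2-D1, H2-K1 and B2m themselves stood only at ranks 26, 149 and 220, so the class I members shared a low spread more than a common course.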

How the data were processed

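Liver RNA of 4 WT and 4 SA/SA mice was sequenced from stranded mRNA libraries as 100 bp pairs. The deposited table holds estimated counts by gene, which the authors made with salmon and scaled for transcript length but not for library size. The annotation and use of strand are not given in the sources used here; the submitters' processing notes name GRCm38, STAR and DESeq2. Estimated counts were rounded. Genes passing filterByExpr (14629 of 45706) were tested with edgeR 4.0.16 in R 4.3.3 (quasi-likelihood, TMM, all 8 livers, no block, Benjamini-Hochberg over all genes). CPM used TMM library sizes, and log2 CPM a prior count of 2. Single genes were also compared by two-sided exact permutation tests, whose smallest p is 0.0286. Nothing in the labels says more of the livers than separate animals. No pair of libraries agreed within sampling noise (chi-square of at least 41.3 per gene). Alternatives were DESeq2 1.42.0, limma-voom 3.58.1, other scalings and filters, blocks and leaving out each liver. The members, gene lists and tests were chosen with earlier results of these data known. Named genes were the members and, from each pathway list, called genes or else up to 2 with the smallest p in each direction. Coordinates are from GENCODE release M21, and promoters from RefSeq. The fits of gene lists without SA/SA replicate 3 and the plasma cell sum without Sdc1 and Xbp1 were added after seeing the data.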

Additional observations from a re-analysis of the deposited data

Results flagged for a closer look

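Samples far from the rest of their group of 4 were sought with Dixon's test at the 95% level in 108 groups, covering the members, Plin5, the named genes and the summed lists. It marked 9, where chance marks about 1 in 20 groups. None concerned a member. Plin5 was high in WT replicate 1, at 254 CPM against 183 to 194 CPM in the other WT livers. Tap1 was low in the same liver, at 23.1 CPM against 40.1 to 43.3 CPM. Tapbpl was high in WT replicate 2, at 20.2 CPM against 16.0 to 16.7 CPM. Irgm2 was high in SA/SA replicate 2, at 68.8 CPM against 39.0 to 43.4 CPM. In SA/SA replicate 4, Adam19 was low at 0.929 CPM against 1.58 to 1.64 CPM, and H2-T23 was low at 254 CPM against 294 to 300.0 CPM. SA/SA replicate 3 was high for the summed markers of B cells, at 31.7 CPM against 8.50 to 10.8 CPM, of plasma cells, at 2728 CPM against 580 to 742 CPM, and of T and NK cells, at 15.6 CPM against 6.49 to 7.86 CPM.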

How the results depend on the processing

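No member was called, and no member had livers of the genotypes that did not overlap, under any alternative computed. DESeq2 called 6 of all genes at an adjusted p under 0.05, where edgeR called 0 (497 at an unadjusted p under 0.05), limma-voom 0 and every other alternative 0. No member was among the 6. The median log2 fold change of the members was 0.10 to 0.24 under the other settings, and 0.0028 without WT replicate 1 to 0.40 without WT replicate 4. Signs of small estimates turned. H2-DMb1 was -0.037 with library size alone and -0.017 with a block for the animal series. On leaving out 1 liver at a time, the log2 fold change was -0.020 to 0.45 for H2-Aa, -0.15 to 0.38 for H2-DMa, -0.17 to 0.21 for H2-DMb1, -0.12 to 0.68 for Ciita, -0.00029 to 0.12 for H2-K1, -0.068 to 0.045 for H2-D1 and -0.066 to 0.040 for B2m. For H2-Ab1, H2-Eb1 and Cd74 it kept its sign, at 0.011 to 0.50, 0.027 to 0.55 and 0.023 to 0.54. The cause was not tested.

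Same-numbered livers correlated at 0.056, 0.166, -0.111 and 0.129 in their deviations. WT replicates 1, 2 and 4 and SA/SA replicates 1 and 2 correlated best with their own number, and the other livers did not. Replicate numbers also follow the animal series in both genotypes, so these values cannot settle whether the numbers pair the livers. With a replicate block 0 genes were called and the median of the members was 0.24, with 0.32 for H2-Aa, 0.36 for H2-Ab1, 0.44 for H2-Eb1 and 0.34 for Cd74. The interaction alternatives were added after seeing the data, and called 0 members. With 4 livers in each group, the intervals of the class II genes stayed wide. Counts of Ciita were low.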
